A study of Mus musculus with 14 samples.

Results

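NKG2D is an activating receptor of NK cells and of cytotoxic T cells, and the genes described here encode its ligands, its signalling parts and the machinery by which such lymphocytes recognise and kill a target cell. The 10 genes are Raet1d and Raet1e, which encode ligands of the RAE-1 family, Klrk1, which encodes NKG2D, Hcst, which encodes its adaptor DAP10, Ncr1, which encodes the NK cell receptor NKp46, the granule genes Gzma, Gzmb and Prf1, and the T cell receptor subunit genes Cd3d and Cd3g. They were taken by name, with the probe set of the highest mean over 14 arrays standing for a gene. As no gene had more than 1 probe set of its own, this choice decided nothing. Of the 10 genes, 9 had a probe set of their own, out of 19938 genes with one, and Raet1e was not analysed here. The set was selected on measured values of these livers, the log2 difference of Raet1d between the groups being among those known. That difference is given as a description with no p-value, and nothing is read from counts of passing genes that include it. The p-values of the other genes were not corrected for that selection.

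HFM livers came from male C57BL/6 mice injected with MSCs, and HFS livers from male C57BL/6 mice injected with saline, both after 20 weeks of a high-fat diet and at 24 weeks of age. The MSCs were human bone marrow cells of a single donor, given through the tail vein, and livers were taken 24 h after injection. Total RNA of 7 HFM and 7 HFS livers was measured on Affymetrix mouse gene arrays, 1 mouse per array, as log2 expression, on which a difference of 1 means a doubling. Each array had a median between 4.24 and 4.35. Hepatocyte genes such as Alb, which encodes albumin, were far above them, at 13.43 in HFM and 13.52 in HFS livers.

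RAE-1 proteins are membrane proteins related to MHC class I, scarce on most healthy adult cells and known to appear on stressed, infected, proliferating or transformed ones. When NKG2D binds a ligand, DAP10 passes the signal on to phosphoinositide 3-kinase, and in mice a form of NKG2D can also use DAP12, the product of Tyrobp. The killer cell then releases perforin, which opens the way for granzymes into the target. Mouse liver is known for a large resident population of NK and related innate lymphocytes. In liver tissue as a whole, fewer cells of a type and less RNA per cell cannot be told apart.

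The promoter of Raet1d is shown beside that of Raet1e because Raet1d had the widest gap between the groups and Raet1e, its near copy in this window, was not measured. In RefSeq on GRCm38.p6 the protein-coding genes Raet1e, H60b and Raet1d, all encoding NKG2D ligands, follow each other on chromosome 10. The RefSeq window of 300 bases, most of it upstream of the start, was at chr10:22361644-22361943 on the plus strand for Raet1d and, for 1 of the listed starts of Raet1e, at chr10:22173247-22173546 on the plus strand. Capitals mark the 3 aligned bases that differ, and 4 bases at the ends stayed unaligned, for an identity of 97.7%.
Raet1d: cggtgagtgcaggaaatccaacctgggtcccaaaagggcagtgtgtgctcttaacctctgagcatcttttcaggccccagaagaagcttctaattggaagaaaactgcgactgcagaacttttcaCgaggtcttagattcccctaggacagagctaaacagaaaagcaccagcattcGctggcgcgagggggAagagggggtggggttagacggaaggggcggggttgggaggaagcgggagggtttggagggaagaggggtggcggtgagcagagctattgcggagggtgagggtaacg
Raet1e: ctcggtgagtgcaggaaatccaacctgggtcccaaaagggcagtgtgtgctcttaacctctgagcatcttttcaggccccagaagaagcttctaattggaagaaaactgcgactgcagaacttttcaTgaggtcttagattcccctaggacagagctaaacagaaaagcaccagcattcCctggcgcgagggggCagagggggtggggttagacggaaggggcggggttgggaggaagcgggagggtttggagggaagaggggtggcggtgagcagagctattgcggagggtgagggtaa
The other listed start of Raet1e, at chr10:22158319-22158618, had an identity of 45.3% with the Raet1d window. No transcript or probe sequence was compared, and whether the probe set of Raet1d also detects Raet1e was not tested.

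The promoters of Klrk1 and Gzmb are shown because they were the ones, among the 10 genes, that held both a Runx motif and an AP-1 motif. Capitals mark TGTGGT (Runx), TGANTCA (AP-1) and, for Klrk1, CCAAT, on either strand, in windows at chr6:129623815-129624114 and chr14:56262285-56262584, both on the minus strand of GRCm38.p6.
Klrk1: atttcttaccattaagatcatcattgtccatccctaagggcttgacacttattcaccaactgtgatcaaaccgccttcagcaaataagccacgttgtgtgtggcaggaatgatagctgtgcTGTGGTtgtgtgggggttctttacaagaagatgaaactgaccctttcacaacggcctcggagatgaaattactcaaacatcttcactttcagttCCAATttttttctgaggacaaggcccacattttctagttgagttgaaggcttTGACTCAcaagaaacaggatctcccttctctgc
Gzmb: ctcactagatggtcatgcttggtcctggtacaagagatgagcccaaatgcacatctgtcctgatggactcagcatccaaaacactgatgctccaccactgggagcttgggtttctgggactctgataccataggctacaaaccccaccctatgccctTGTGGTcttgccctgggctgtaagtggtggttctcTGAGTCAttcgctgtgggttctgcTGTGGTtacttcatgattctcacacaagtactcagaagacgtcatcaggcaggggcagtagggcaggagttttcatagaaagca
TGTGGT was in the promoters of Klrk1, Ncr1, Gzma, Gzmb and Prf1, which is 5 of the 10 genes, and in none of those of Raet1d, Raet1e, Hcst, Cd3d and Cd3g. Of all 32851 RefSeq promoter windows of this length, 16.8% held TGTGGT and 7.81% held TGANTCA. The T-box motif GGTGTGA, the CRE motif TGACGTCA and the TATA box motif TATAAA were in 0 of the 10, against 3.98%, 1.79% and 13.6% of all windows. A match is a match of letters, and binding was not measured.

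Raet1d was the one ligand gene of the 10 with a probe set annotated to it alone, and it was also the gene with the widest gap between the groups. It ran from 5.05 to 6.62 in HFM livers with a median of 6.15, and from 4.26 to 5.93 in HFS livers with a median of 5.04. HFM1, HFM2, HFM3 and HFM6, at 6.53, 6.62, 6.15 and 6.36, lay above every HFS mouse, while HFM4 and HFM5, at 5.08 and 5.05, lay within the HFS range. On the other side HFS1, HFS2, HFS3 and HFS4 lay below every HFM mouse, and HFS7, at 5.93, was the highest of the controls. The means were 5.91 ± 0.67 in HFM and 5.03 ± 0.60 in HFS livers (SD, n = 7 each), and differed by 0.89 (standard error 0.28), or 1.85-fold. All 7 HFM mice lay above the HFS mean.

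**Figure D1:**
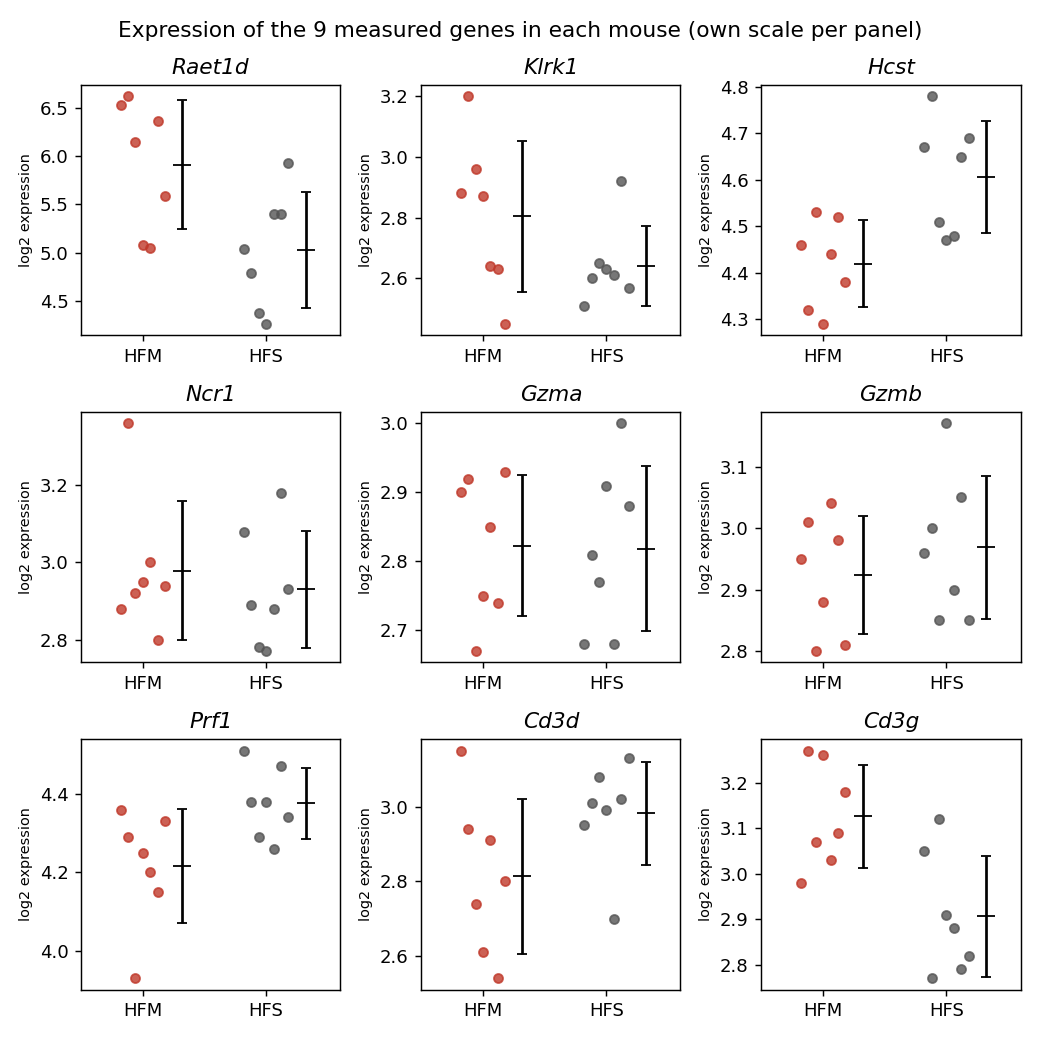
Log2 expression of the 9 measured genes in each HFM (red, left) and HFS (gray, right) mouse, with a vertical scale of its own in each panel; black marks are the mean ± SD of 7 mice. Raet1d ran from 5.05 to 6.62 in HFM and from 4.26 to 5.93 in HFS mice, and the groups overlapped for every gene.

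Of the other NKG2D ligand genes listed for mouse, only H60b had a probe set of its own, so 2 of 9 ligand genes were measured, and Raet1a, Raet1b, Raet1c, Raet1e, Ulbp1, H60a and H60c were not analysed here. H60b, the neighbour of Raet1d, ran from 2.50 to 2.93 in HFM and from 2.51 to 2.87 in HFS livers. Its means of 2.73 ± 0.18 and 2.61 ± 0.12 (SD, n = 7 each, HFM and HFS) differed by 0.12 (standard error 0.08; limma, adjusted p = 0.826; two-sided exact permutation test, p = 0.191). The groups of H60b overlapped almost fully, with 2 HFM mice above every HFS mouse and 1 below. Of the genes of the DNA damage response and of proliferation, settings in which NKG2D ligands are known to be induced, 8 of 13 measured were above 0 and 5 below. Over all probe sets 51.4% were above 0. The median difference of the 13 genes was 0.06, and they ran from -0.07 to 0.14. By limma 0 of 13 passed an unadjusted p of 0.05, where 6.47% of all probe sets did. Among the 13 genes Gadd45a, a gene induced by DNA damage, differed by 0.10 (standard error 0.14) and Mki67, a marker of dividing cells, by 0.14 (standard error 0.09). Cdkn1a, Bax and Ccnb1, also on that list, were not analysed here. Whether such settings bear on Raet1d was not tested.

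Klrk1, the receptor itself, was near the lower end of the arrays in both groups. It ran from 2.45 to 3.20 with a median of 2.87 in HFM livers, and from 2.51 to 2.92 with a median of 2.61 in HFS livers. HFM2, at 3.20, and HFM3, at 2.96, lay above every HFS mouse, and HFM7, at 2.45, lay below every HFS mouse. The means of 2.80 ± 0.25 in HFM and 2.64 ± 0.13 in HFS livers differed by 0.17 (standard error 0.10, 95% interval -0.04 to 0.37), which was within the spread between mice (adjusted p = 0.808; exact permutation test, p = 0.153). Without HFM7, or without HFS6, the difference was 0.22 or 0.21, at an unadjusted p of 0.0233 or 0.0431 from limma. These were the only 2 of 22 alternatives past the unadjusted threshold named above. Without HFM2, the highest mouse, the difference fell to 0.10 at an unadjusted p of 0.27, and without HFM3 to 0.14 at 0.184.

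Hcst, the DAP10 adaptor, was lower in HFM livers before adjustment, in the direction opposite to Klrk1. It ran from 4.29 to 4.53 with a median of 4.44 in HFM livers, and from 4.47 to 4.78 with a median of 4.65 in HFS livers. Of the 7 HFM mice, 5 lay below every HFS mouse, 0 lay above the HFS mean, and 4 HFS mice lay above every HFM mouse. The means were 4.42 ± 0.09 in HFM and 4.61 ± 0.12 in HFS livers, and differed by -0.19 (standard error 0.07, 0.879-fold; adjusted p = 0.731; exact permutation test, p = 0.0111).

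Tyrobp, the DAP12 adaptor that NK cells and macrophages both use, had the opposite sign. It ran from 5.75 to 6.90 with a median of 6.08 in HFM livers, and from 5.28 to 6.17 with a median of 5.60 in HFS livers. The means of 6.20 ± 0.41 in HFM and 5.68 ± 0.32 in HFS livers differed by 0.51 (standard error 0.17, 1.43-fold; adjusted p = 0.714; exact permutation test, p = 0.0216). HFM1, HFM2 and HFM6 lay above every HFS mouse, at 6.29, 6.90 and 6.51, and 4 HFS mice lay below every HFM mouse.

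Tyrobp and Hcst are neighbours on chromosome 7, and the pair was picked for its opposite signs, so its gap is a description with no test. Tyrobp minus Hcst was larger in HFM than in HFS livers by 0.70 (standard error 0.22), with 5 HFM mice above every HFS mouse. The markers of macrophages, Kupffer cells among them, went the way of Tyrobp. These markers were chosen after their values were seen, so their counts are descriptions and not a test. Of 12 such markers 12 were above 0, where 51.4% of all probe sets were, with a median of 0.30. By limma 5 passed an unadjusted p of 0.05 as higher, where 3.57% of all probe sets did, Mpeg1 (0.52), Cd5l (0.56), C1qb (0.41), Marco (0.35) and Cd68 (0.31), and 0 passed after adjustment. Their mean level ran from 6.62 to 7.62 in HFM and from 6.33 to 7.37 in HFS livers, and 0 of the 12 lay below the array medians.

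Within groups, with each group mean subtracted, Tyrobp correlated with the mean of these 12 markers at r = 0.83 and rho = 0.68 over 14 mice (permutation tests, p = 0.00077 and 0.014, adjusted over 3 genes p = 0.00231 and 0.0419). It was at r = 0.74 without HFM2 and HFS5, the mice farthest from the median of the markers. For Raet1d r was 0.52 and rho 0.53 (permutation tests, adjusted p = 0.103 and 0.105), and r was 0.41 without the same mice. For Hcst r was -0.17 and rho 0.07 (permutation tests, adjusted p = 0.569 and 0.823), and r was 0.29 without them. The markers and the 3 genes were chosen with their values known, and these p-values take no account of that choice. The part of macrophages in the levels of Raet1d and Tyrobp was not tested.

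**Figure D2:**
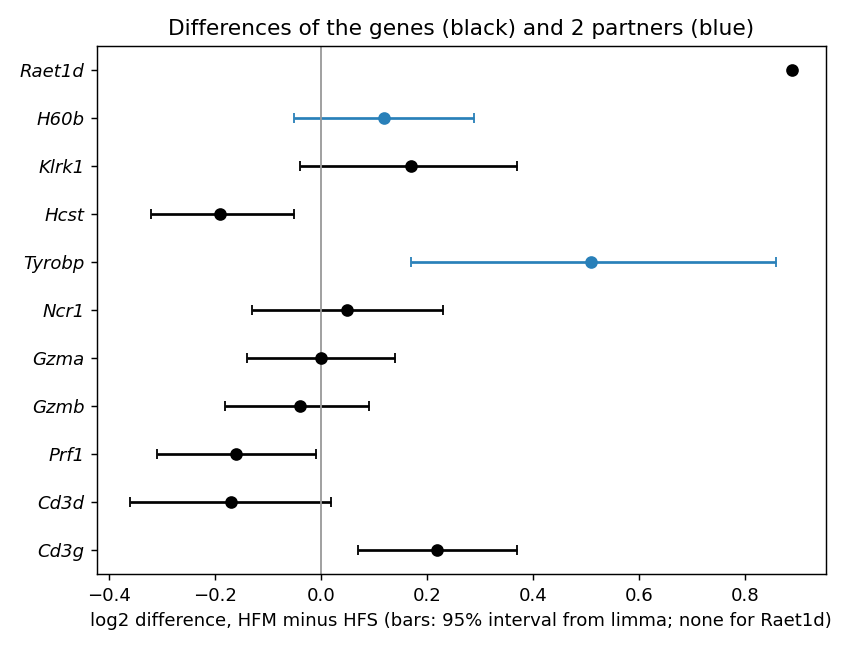
Log2 difference, HFM minus HFS, of the 9 measured genes (black) and of H60b and Tyrobp (blue), with bars for the 95% interval from limma (none for Raet1d), 7 mice per group. Raet1d was at 0.89, Tyrobp at 0.51, Hcst at -0.19, and the remaining genes lay between -0.17 and 0.22.

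The kinases and scaffolds further down the NKG2D pathway did not stand out. Of 10 genes of the receptor and its signalling, 7 were above 0 and 3 below, with a median of 0.08, and limma gave 1 higher (Tyrobp) and 1 lower gene (Hcst) at an unadjusted p of 0.05, where 3.57% and 2.9% of all probe sets were higher and lower. Vav1, an exchange factor recruited by DAP10, differed by 0.16 (standard error 0.11), and Lcp2, the scaffold SLP-76, by 0.22 (standard error 0.14). Syk, a kinase bound by DAP12, differed by 0.11 (standard error 0.08), and Zap70, its relative in T and NK cells, by -0.06 (standard error 0.09). Grb2, Pik3r1 and Plcg2 were at 0.05, -0.03 and 0.01. Among the 10 genes the limma adjusted p lay between 0.714 and 0.991.

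Ncr1, which marks NK cells and related innate lymphocytes, did not differ beyond the spread between mice. It ran from 2.80 to 3.36 with a median of 2.94 in HFM livers, and from 2.77 to 3.18 with a median of 2.89 in HFS livers. The means of 2.98 ± 0.18 in HFM and 2.93 ± 0.15 in HFS livers differed by 0.05 (standard error 0.09, 95% interval -0.13 to 0.23; adjusted p = 0.934; exact permutation test, p = 0.603). HFM2 alone lay above every HFS mouse, and without it the difference was -0.01.

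Other receptors of NK cells differed little. Of 34 listed genes 28 were measured, 20 above 0 and 8 below, with a median of 0.03 and a range of -0.08 to 0.30. By limma, with an unadjusted p of 0.05 as threshold, 1 was higher, Itga1, a collagen-binding integrin of resident NK cells that endothelial and stellate cells also express, by 0.22 (standard error 0.10; adjusted p = 0.770). That is 3.57% of the list, against 3.57% of all probe sets, and the count was 0 with quantile normalization or without any one of HFM1, HFM2, HFM3, HFM4, HFM6, HFS2, HFS4 and HFS6. Fcgr3, an Fc receptor shared with macrophages, differed by 0.30 (standard error 0.16), and Klrd1, the CD94 partner of inhibitory NKG2 receptors, by 0.11 (standard error 0.06). Of the 28 genes 26 had a mean below 4.24, the lowest median of any array.

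Gzma and Gzmb, the granzymes that set off death of the target cell, did not differ beyond the spread between mice. Gzma ran from 2.67 to 2.93 with a median of 2.85 in HFM livers, and from 2.68 to 3.00 with a median of 2.81 in HFS livers. Its difference was 0.00 (standard error 0.07, 95% interval -0.14 to 0.14; adjusted p = 0.996; exact permutation test, p = 0.953). Gzmb ran from 2.80 to 3.04 with a median of 2.95 in HFM livers, and from 2.85 to 3.17 with a median of 2.96 in HFS livers. Its difference was -0.04 (standard error 0.07, 95% interval -0.18 to 0.09; adjusted p = 0.920; exact permutation test, p = 0.451).

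Prf1, which encodes the pore-forming protein perforin, was lower in HFM livers before adjustment. It ran from 3.93 to 4.36 with a median of 4.25 in HFM livers, and from 4.26 to 4.51 with a median of 4.38 in HFS livers. Of the HFM mice 4 lay below every HFS mouse and 0 lay above the HFS mean, and 4 HFS mice lay above every HFM mouse. The means of 4.22 ± 0.15 in HFM and 4.38 ± 0.09 in HFS livers differed by -0.16 (standard error 0.07, 0.896-fold; adjusted p = 0.770; exact permutation test, p = 0.0210). Without HFM3, the lowest mouse at 3.93, the difference was -0.11 at an unadjusted p of 0.0865 from limma. With the median of each array subtracted it was -0.13 at 0.0627.

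The wider list of cytotoxic granule genes held 22 measured genes, 10 above 0 and 12 below, with a median of -0.01. By limma 2 passed an unadjusted p of 0.05 as higher and 1, Prf1, as lower, where 3.57% and 2.9% of all probe sets did. The higher ones were Lamp1, a lysosomal membrane protein of nearly all cells, at 0.19 (standard error 0.07), and Serpinb9, an inhibitor of granzyme B, at 0.20 (standard error 0.09). Of the remaining granule genes Ctsc, a cathepsin that activates granzymes, was at 0.28 and did not pass. Gzmm was at -0.12, Nkg7, a granule membrane protein, at -0.10, Gzmk at -0.08 and Ctsw, a cathepsin of killer lymphocytes, at -0.01. Gzmn was at 0.11 (limma, unadjusted p = 0.0511; exact permutation test, p = 0.00699), Gzmd at 0.06 and Gzmg at 0.03. Gzmf, Gzmc and Gzme were at -0.01, -0.02 and -0.05. The granzymes from Gzmn to Gzme lay in the range of the dim signals described further on. Of the cytokines, receptors and death ligands of such cells, 10 of 19 measured genes were above 0 and 9 below, with a median of 0.00. At the same threshold 0 were higher and 2 lower, Ifng, the main cytokine of NK cells, at -0.18 (standard error 0.07) and Il12b, a subunit of IL-12 and IL-23, at -0.18 (standard error 0.07), where 3.57% of all probe sets were higher and 2.9% lower. Il18, a cytokine that activates NK cells, was at 0.30 (standard error 0.15) and did not pass. None of 11 measured transcription factors of these lymphocytes passed at the unadjusted threshold, and Runx3, Eomes and Tox were at -0.14, 0.12 and 0.11.

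Cd3d and Cd3g encode subunits of the same T cell receptor complex, and they had opposite signs. Cd3d ran from 2.54 to 3.15 with a median of 2.80 in HFM livers, and from 2.70 to 3.13 with a median of 3.01 in HFS livers. Its means of 2.81 ± 0.21 and 2.98 ± 0.14 (HFM and HFS) differed by -0.17 (standard error 0.09, 95% interval -0.36 to 0.02; adjusted p = 0.793; exact permutation test, p = 0.0973). HFM1, at 3.15, was the highest of all mice and HFS5, at 2.70, the lowest of the controls. Without HFM1 the difference was -0.23 at an unadjusted p of 0.0131 from limma, and without HFS5 it was -0.22 at 0.0225. With weighted arrays it was -0.20 at 0.0435, and these were the only 3 of 22 alternatives past the unadjusted threshold named above. Without HFM6 the difference shrank to -0.13 at an unadjusted p of 0.169, and without HFM4 to -0.14 at 0.153.

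Cd3g ran from 2.98 to 3.27 with a median of 3.09 in HFM livers, and from 2.77 to 3.12 with a median of 2.88 in HFS livers. All 7 HFM mice lay above the HFS mean, 3 lay above every HFS mouse, and 5 HFS mice lay below every HFM mouse. The means of 3.13 ± 0.11 in HFM and 2.90 ± 0.13 in HFS livers differed by 0.22 (standard error 0.07, 1.17-fold; adjusted p = 0.714; exact permutation test, p = 0.00874). The gap of Cd3g minus Cd3d, a pair picked for its opposite signs and described with no test, was larger in HFM than in HFS livers by 0.39 (standard error 0.13), and both genes lay in the range of the dim signals described further on.

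Smaller differences were seen for the remaining parts of the complex. Cd3e, the subunit next to them on chromosome 9, averaged 4.93 in HFM and 4.92 in HFS livers and so differed by 0.01 (standard error 0.08), and Cd247, the zeta chain, differed by 0.04 (standard error 0.08). Over 15 measured T cell receptor genes 8 were above 0 and 7 below, with a median of 0.00, and Cd3g was the only one past an unadjusted p of 0.05 from limma, where 3.57% of all probe sets were higher and 2.9% lower. Thy1, a surface glycoprotein of T cells that fibroblasts also carry, was at -0.15 (standard error 0.10), Cd4 at 0.06 and Cd8a at -0.05. The genes of the T cell receptor chains themselves were not analysed here.

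**Figure D3:**
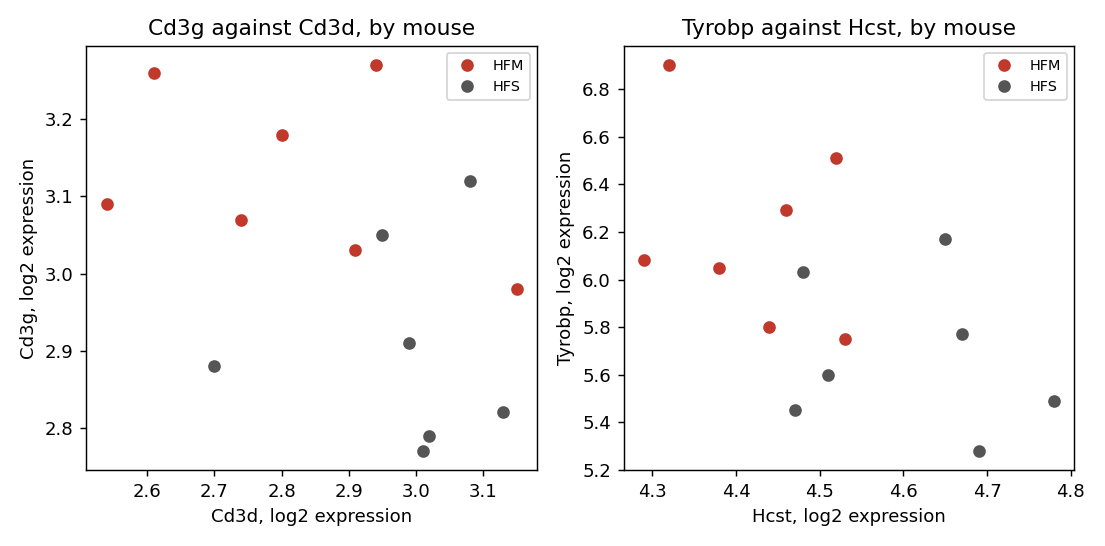
Log2 expression of Cd3g against Cd3d (left) and of Tyrobp against Hcst (right), 1 point per mouse, HFM in red and HFS in gray. On average HFM mice lay toward the upper left in both. The gap of Cd3g minus Cd3d was larger by 0.39 in HFM mice and that of Tyrobp minus Hcst by 0.70. Single mice departed from this, such as HFM1, which had the highest Cd3d of all mice, at 3.15.

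Most of these signals were close to what the arrays give for genes that liver is not known to use. No detection call is in the values, so 1035 probe sets of olfactory receptor genes, which belong to the nose, served as a rough guide. Their means had a median of 2.68 and a 95th percentile of 3.88. Klrk1, Ncr1, Gzma, Gzmb, Cd3d and Cd3g, 6 of the 9 measured genes, lay below that percentile, with 54.5%, 71.9%, 63.1%, 71.3%, 67.8% and 75.7% of olfactory receptor probe sets below them. Raet1d, Hcst and Prf1 lay above 99.5%, 98.6% and 97.9% of these probe sets. Probe sets differ in their own affinity, so this sets no order among the genes. For the 6 dim genes, a lack of difference says that none was detectable at this signal, not that expression was the same. Of the 15 measured T cell receptor genes 11, Cd3e and Cd8a among them, lay above 95% of olfactory receptor probe sets. So did 10 of 22 granule genes and 9 of 19 cytokine genes. Serpinb9 and Il12b, named above as past an unadjusted p of 0.05 from limma, were dimmer, above 88.9% and 91.8% of these probe sets.

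**Figure D4:**
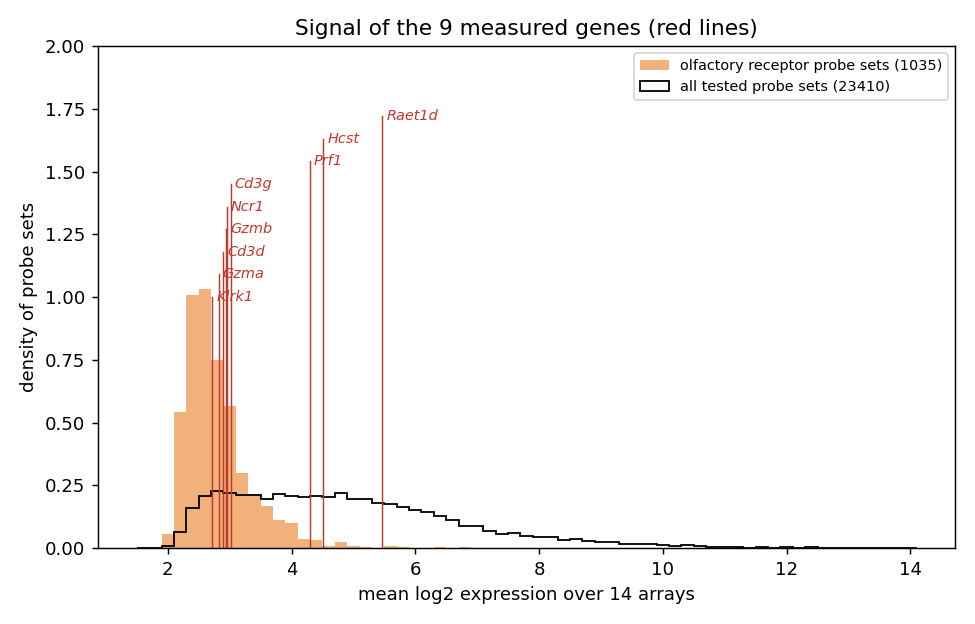
Mean log2 expression over 14 arrays of the 9 measured genes (red lines, whose heights carry no value) on the density of 1035 olfactory receptor probe sets (orange) and of all 23410 tested probe sets (black outline). The lines of 6 genes fall below 3.88, the 95th percentile of the olfactory receptor probe sets, and those of Prf1, Hcst and Raet1d lie above it.

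Between mice of a group, no pair of the genes varied together at an adjusted p under 0.05. Over the 36 pairs of measured genes, with the group means subtracted, Pearson's r ran from -0.61 to 0.61 over 14 mice, and the smallest adjusted p of the permutation tests was 0.425. The highest was that of Gzma with Cd3d, at r = 0.61 and rho = 0.61 (permutation tests, p = 0.0227 and 0.0313, adjusted p = 0.425 and 0.894), and r was 0.68 without HFM3 and HFS6. Hcst and Cd3g had an r of -0.61 and a rho of -0.52 (permutation tests, p = 0.0354 and 0.0780, adjusted p = 0.425 and 0.894), with r at -0.60 without HFM4 and HFS4. Cd3d and Cd3g had an r of -0.21 and a rho of -0.31 (permutation tests, adjusted p = 0.854 and 0.894), with r at -0.07 without HFM1 and HFS5. Raet1d had an r between -0.33 and 0.37 with the other 8 genes, and with Klrk1, its receptor, an r of 0.35 and a rho of 0.24 (permutation tests, adjusted p = 0.732 and 0.894), with r at 0.36 without HFM4 and HFM5.

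Over all of the genes, no common direction was seen. Of the 9 measured, 5 were above 0 and 4 below, with a median difference of 0.00, as over all tested probe sets (0.00), of which 51.4% were above 0 and 48.6% below. By limma 3 of the 8 genes other than Raet1d passed an unadjusted p of 0.05, where 6.47% of all 23410 probe sets did. Of these, 1 was higher (Cd3g), where 3.57% of all probe sets were, and 2 lower (Hcst and Prf1), where 2.9% were. The set was selected on measured values of these livers, so these counts are descriptions and not a sign of enrichment. The p-values of Hcst, Prf1 and Cd3g were likewise not corrected for that selection. The methods used a p of 0.01, a Bonferroni correction and a 1.2-fold change. The p and the fold alone, without the correction, were passed by 1 gene, Raet1d, and by 0.696% of all probe sets, 0.453% as higher and 0.243% as lower. Nothing is read from that count, since the difference of Raet1d was known when the genes were chosen. With the smallest adjusted p over all probe sets at 0.305 by Benjamini-Hochberg, 0 would pass the stricter Bonferroni correction at 0.05. After adjustment over all probe sets 0 of 9 passed, as did 0.0% of all probe sets, and the adjusted p of the 8 genes other than Raet1d ran from 0.714 to 0.996. The groups overlapped for all 9 genes, and 0.0555% of all probe sets had groups that did not. The mean of 7 killer lymphocyte genes (Klrk1, Ncr1, Gzma, Gzmb, Prf1, Cd3d and Cd3g) was 3.10 ± 0.10 in HFM and 3.09 ± 0.06 in HFS livers (SD, n = 7 each), and HFM2, at 3.28, was its highest mouse.

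**Figure D5:**
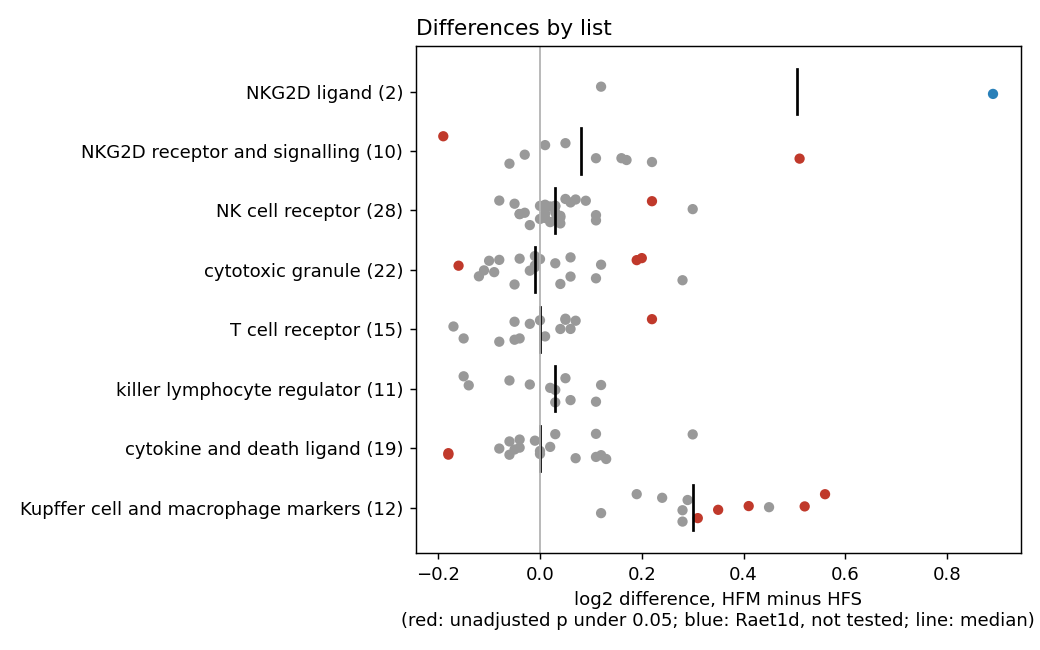
Log2 difference, HFM minus HFS, of each measured gene of the lists named at the left, with the number of genes in parentheses; black lines are medians, red points passed an unadjusted p of 0.05 from limma, and Raet1d is in blue. The medians of the NK cell receptor, granule, T cell receptor, regulator and cytokine lists lay between -0.01 and 0.03, and that of the macrophage markers at 0.30.

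Markers of other leukocytes were set beside these genes. The 5 pan-leukocyte markers were all above 0 with a median of 0.21, and 0 passed an unadjusted p of 0.05 from limma, and Ptprc, the CD45 gene, was at 0.21 (standard error 0.14). Of 6 neutrophil markers 6 were above 0 and 1, Cxcr2 (0.23), passed as higher, with a mean level of 3.27 to 4.81 in HFM and 3.23 to 3.83 in HFS livers. S100a8, with the largest difference (0.38), reached 6.84 in HFM livers, but its medians were 3.57 in HFM and 3.59 in HFS livers. Only 1 of the 6 lay above 95% of olfactory receptor probe sets, and Cxcr2 lay above 58.8% of them. Of 5 B cell markers 3 were above 0 and 2 below, with a median of 0.00, and 1, Cd79a (-0.24), passed as lower. Over all probe sets 51.4% were above 0, and 3.57% passed as higher and 2.9% as lower. None of these markers passed after adjustment.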

How the data were processed

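Liver RNA of 14 mice was hybridised to 14 Affymetrix arrays. Per probe set, the deposited log2 values were summarized and normalized between arrays by the authors in Affymetrix Expression Console. The submitters' processing notes name RMA and the methods name PLIER, and neither source used here gives versions or a genome build. Of 35556 probe sets, the 23410 with at least 1 gene symbol in the platform annotation were tested, and 12146 were left out. The identifiers of 21698 of 21789 probe sets with exactly 1 symbol were in the RefSeq table, which changed 0 symbols.

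Differences are HFM minus HFS from limma 3.58.1 in R 4.3.3, with no covariate and no filter on signal, adjusted by Benjamini-Hochberg over all tested probe sets. Exact permutation tests were two-sided over 3432 assignments of the mice, with a smallest possible p of 0.000583. Permutation tests of correlations drew 100000 resamples within groups. The number of arrays limits the precision. The labels call each array a separate mouse. The test was checked on simulated data. The genes, lists and tests were chosen with earlier results of these data known. Named besides the 10 genes were all genes of the NKG2D ligand and receptor lists, the 3 with the smallest p of each other lymphocyte gene list, and those most alike to Raet1d and to the killer lymphocyte mean. Genes named for their role alone (Alb, Ptprc, Cd3e, Cd247, Cd4, Cd8a, the granzymes other than Gzma and Gzmb, Ctsc, Nkg7, Ctsw, Gadd45a, the markers of other cells and the motif-bearing promoters) were chosen after their values were seen. Promoter sequences are RefSeq's on GRCm38.p6. Alternatives were a replicate block, quantile normalization, median centring, the 11705 brightest probe sets, array weights, another prior, an unmoderated test, all probe sets, averaged probe sets of each gene and each mouse left out.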

Additional observations from a re-analysis of the deposited data

Results flagged for a closer look

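Single mice stood apart from the rest of their group in 3 of 18 sets of 7 values, by Dixon's test at its 95% critical value, which chance exceeds in about 1 of 20 groups. For Ncr1, HFM2 was the highest HFM mouse, at 3.36, and the other HFM mice ended at 3.00. For Klrk1, HFS6 was the highest HFS mouse, at 2.92, and the other HFS mice ended at 2.65. For Cd3d, HFS5 was the lowest HFS mouse, at 2.70, and the other HFS mice began at 2.95. All 3 lie in the range of olfactory receptor probe sets.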

How the results depend on the processing

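The differences of Raet1d, Klrk1, Hcst, Gzmb, Prf1, Cd3d and Cd3g kept their sign in every alternative run, and Hcst and Cd3g were past an unadjusted p of 0.05 in all that measured them. Ncr1 turned to -0.01 without HFM2, and Gzma lay between -0.02 and 0.03. Prf1 was past that threshold in 13 of 22 alternatives, and its difference ran from -0.18 to -0.11. The methods' p and fold, without their Bonferroni step, passed 1 of the genes (Raet1d), and it was 0 with all probe sets, with weighted arrays, with a robust, trended prior or with the unmoderated test. It was also 0 without HFM1, HFM2, HFM3, HFM6, HFS2, HFS3 or HFS4, so that it ran from 0 to 1 with a mouse left out. The count past an unadjusted p of 0.05, Raet1d included, was 4 and ran from 3 to 5 with a mouse left out. Over all 23410 probe sets that count was 1514 and ran from 1082 to 2465. The 11705 brightest probe sets held Raet1d alone of the 9, so the count of the genes was 1 and the median difference 0.89. Of all the brightest, 749 passed that p. With a mouse left out, the median over the 9 genes ran from -0.02 to 0.03. Nothing is read from the counts that include Raet1d, since its difference was known when the genes were chosen.

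Of the lists, the number of NK cell receptor genes higher at an unadjusted p under 0.05 was 0 with all probe sets, the 11705 brightest or quantile normalization, 2 with median centring, and 0 to 2 with a mouse left out. For the T cell receptor list it was 0 in the 11705 brightest and 1 with any mouse left out. For the cytokine list it was 1 with averaged probe sets, median centring or quantile normalization and 0 to 1 with a mouse left out. For the granule list it was 1 in the 11705 brightest and 1 to 3 with a mouse left out, and for the receptor and signalling list 1 to 2. With the replicate number as a block, the granule list had 1 higher gene, Raet1d was at 0.89 and Hcst at -0.19, and no count of the 9 genes changed. The numbers do not pair the mice, as same-numbered mice correlated at -0.203 to 0.139 and 0 of 7 HFM mice correlated best with their own number.

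Over all probe sets the same p and fold passed 163, against 254 with all probe sets, 102 in the 11705 brightest, 75 with the unmoderated test, 92 without HFM2, 359 without HFM5 and 346 without HFM7. Median centring moved the share of higher ones to 81.4%, against 65.0%. An adjusted p of 0.05 was passed by 0 probe sets, and by 1 without HFS6. The gaps of Cd3g minus Cd3d and of Tyrobp minus Hcst, with alternatives chosen after seeing the data, were 0.40 and 0.65 with quantile normalization and ran from 0.34 to 0.47 and from 0.57 to 0.79 with a mouse left out.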

Other observations

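The genes whose values followed Raet1d most closely between mice of a group, out of 19938 genes over 14 mice, were Arhgef2 (r = 0.88), an exchange factor of RhoA bound to microtubules, Mettl15 (r = 0.83), Ndufa13 (r = 0.83), a subunit of respiratory complex I, Slc26a2 (r = 0.82), a sulfate transporter, and Slc9a9 (r = 0.81), an endosomal sodium-proton exchanger. Their own differences between HFM and HFS livers were 0.03 to 0.15, against 0.89 for Raet1d, and no receptor or granule gene was among them. For the mean of the 7 killer lymphocyte genes the closest were Ppp3r2 (r = 0.92), a testis form of calcineurin B, the olfactory receptor genes Olfr554 (r = 0.88) and Olfr622 (r = 0.87), Ddx55 (r = 0.86) and Mospd3 (r = 0.84). These correlations are descriptions picked as the highest of many, with no test.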
